A study of Homo sapiens with 62 samples.

Results

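The protocadherin genes were taken as every protein-coding gene whose name starts with PCDH. In the count tables of 4 cell lines, with GRCh38 coordinates, 66 of 58735 genes met this rule, out of 19951 protein-coding genes. In the tables of the fifth line, A2780, 65 of 48162 genes did, out of 20312 protein-coding genes. The set was split by position: 53 genes (52 in the A2780 tables) lie side by side in the clustered PCDHA, PCDHB and PCDHG families on the long arm of chromosome 5, and 13 lie outside the cluster. Of these 13, PCDH1 and PCDH12 are also on the long arm of chromosome 5, close to the cluster's end, and the others are on other chromosomes. The tables share 62 of these gene IDs. PCDHB16 and PCDH20 have different IDs in both kinds of table, PCDHB17 is a member in A2780 alone, and PCDHB9 and PCDHGB5 in the other lines alone.

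Polyadenylated RNA was sequenced in 62 libraries from A2058 (melanoma), HCT116 (colorectal cancer), AGS (gastric adenocarcinoma), A2780 (ovarian cancer) and MCF10A (non-cancerous breast epithelium). Parental cells (WT) of the cancer lines carry an extra 1q (A2058, AGS, A2780), 7p (A2058) or 8q (A2058, HCT116). Loss clones, each grown from a single cell, had lost that extra arm through ReDACT, engineered removal of an extra chromosome arm in versions that the labels call NS, TR and CO. All A2058 and HCT116 loss clones were made by CO and the A2780 clones by NS. Clones 1, 4, 6 and 7 of AGS were made by NS and clone 11 by CO. In MCF10A, clones 1, 2 and 3 of each 1q-loss group were made by TR and clone 4 by CO. TK+ cells of AGS (2 clones) and A2780 carry the TK cassette used for selection and keep the gain. An additional set of MCF10A WT and 1q-loss libraries expressed hRASV12, an activated HRAS. A2058 had 4 WT libraries and 2 libraries for each of 2 1q-loss, 3 7p-loss and 2 8q-loss clones. HCT116 had 2 WT libraries and 2 for each of 2 8q-loss clones. AGS had 1 WT library, 1 for each TK+ clone and 1 for each of 5 1q-loss clones. A2780 had 2 WT and 2 TK+ libraries and 2 for each of 3 1q-loss clones, named clones 2, 5 and 6. MCF10A had 2 libraries for WT, for hRas WT, for each of 4 1q-loss clones and for each of 4 hRas 1q-loss clones.

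Libraries held between 15042068 and 30984036 counts. No library was left out, and the replicate libraries of every unit differed by more than counting noise. In A2058 the summed CPM (counts scaled to a common library total) of 5 melanoma markers lay at 1651 to 2673 in WT and at 914 to 2883 in 7p-loss and 8q-loss libraries. In 1q-loss libraries they lay at 129 to 134 in clone 1 and at 43.9 to 54.0 in clone 2, where TYR was at or below 3 counts. Single markers differed more than this sum: TYR was at 96.3 to 157 CPM in WT, 2.11 to 6.63 in 8q-loss clones, 0.0963 to 4.91 in 7p-loss clones 2 and 3 and 583 to 1066 in 7p-loss clone 1. MLANA was at 13.9 to 23.6 CPM in WT and 1.59 to 5.06 in 7p-loss and 8q-loss clones. Of 6 ovarian markers, A2780 had WT1 and EMX2 at or below 3 counts in every unit, PAX8 at most at 0.548 CPM and MUC16 at most at 1.14. The keratins KRT8 and KRT18 were at 131 to 140 and 38.4 to 38.6 CPM in WT and at 2.34 to 3.30 and 2.25 to 3.30 in TK+. HCT116 expressed CDX2 (32.4 to 47.1 CPM) and EPCAM (53.8 to 147), with KRT20 at most at 2.60 CPM and CDX1, VIL1 and CDH17 near 0. AGS expressed KRT8, KRT18, KRT19 and EPCAM (550 to 4960 CPM) and CDH1 (17.0 to 44.7), with CLDN18 near 0. In bulk RNA, fewer expressing cells and less RNA per cell cannot be told apart. Because repeat libraries of 1 clone share their origin, p-values measure the spread between libraries.

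Protocadherins are cadherin-type cell adhesion proteins. Each clustered gene has a promoter and a first exon of its own, and neurons switch on a few of these promoters per cell, which gives cells different surface identities. The insulator protein CTCF, with cohesin, loops chosen promoters to distant enhancers, and DNA methylation keeps unchosen ones silent. PCDHA and PCDHG first exons are spliced to constant exons shared within each family, whereas PCDHB genes are not. Non-clustered protocadherins, such as the delta group (PCDH1, PCDH7, PCDH9, PCDH10, PCDH17, PCDH18, PCDH19), are each regulated separately.

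On GRCh38 the PCDHA genes span chromosome 5, bases 140786136 to 141012347, the PCDHB genes 141051135 to 141249365 and the PCDHG genes 141330571 to 141512981. The median share of a gene's exonic bases that lie in no other gene was 50.6% for PCDHA, 56.2% for PCDHG and 94.9% for PCDHB. How reads on shared exons were assigned is not given in the sources used here, so values of single PCDHA and PCDHG genes are less certain than those of PCDHB genes. The promoters of 4 clustered genes are shown because the levels of these genes differ between the A2058 clones described below. Each is the 250 bases before the gene start on the plus strand of GRCh38.p14, from RefSeq, with every CGCT, the core of the clustered promoters' shared element, and its reverse complement AGCG in capitals. PCDHA6 is at chr5:140827710-140827959, PCDHB3 at chr5:141100223-141100472, PCDHB5 at chr5:141134956-141135205 and PCDHB8 at chr5:141177540-141177789.
PCDHA6: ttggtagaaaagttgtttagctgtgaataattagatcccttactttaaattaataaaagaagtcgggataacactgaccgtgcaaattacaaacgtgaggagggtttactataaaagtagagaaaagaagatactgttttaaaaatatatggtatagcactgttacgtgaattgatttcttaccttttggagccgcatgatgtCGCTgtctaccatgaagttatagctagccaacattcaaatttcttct
PCDHB3: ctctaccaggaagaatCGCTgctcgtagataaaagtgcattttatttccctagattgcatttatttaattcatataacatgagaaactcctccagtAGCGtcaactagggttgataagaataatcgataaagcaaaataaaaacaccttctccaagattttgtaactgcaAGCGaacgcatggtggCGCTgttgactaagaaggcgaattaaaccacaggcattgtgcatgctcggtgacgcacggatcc
PCDHB5: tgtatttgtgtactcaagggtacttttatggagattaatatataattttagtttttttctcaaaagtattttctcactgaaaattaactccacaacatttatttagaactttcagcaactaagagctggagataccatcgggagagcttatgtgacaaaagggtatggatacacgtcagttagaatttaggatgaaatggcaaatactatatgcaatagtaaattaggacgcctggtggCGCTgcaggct
PCDHB8: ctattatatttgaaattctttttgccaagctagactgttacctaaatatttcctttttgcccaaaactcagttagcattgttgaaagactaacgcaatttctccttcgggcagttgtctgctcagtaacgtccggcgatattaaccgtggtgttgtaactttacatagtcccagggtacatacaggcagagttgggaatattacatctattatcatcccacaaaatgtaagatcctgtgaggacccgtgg
Both PCDHA6 and PCDHB5 hold 1 match, on the gene's strand, PCDHB3 holds 4 on either strand and PCDHB8 holds 0. RefSeq windows matched 47 of the 53 clustered genes, and 45 of the 47 (95.7%) held CGCT on either strand, all 45 on the gene's strand. Over windows of 27305 genes these shares were 64.3% on either strand and 47.9% on the gene's strand. Of the 13 other protocadherins, 11 matched, 10 held the motif on either strand and 6 on the gene's strand. The longer CGCTG (reverse complement CAGCG), each match of which contains a CGCT, was in 40 of the 47 windows (85.1%) and in 40.4% of all windows. A match describes these letters and is not a measured binding site.

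The lines differed in which families they expressed. A2780 and A2058 WT cells expressed all 3 clustered families, and MCF10A did so at lower PCDHG levels. AGS expressed PCDHB and, at lower levels, PCDHG, with almost no PCDHA. HCT116 was close to silent for PCDHA and PCDHB, with a PCDHG sum near that of AGS. Summed CPM of the PCDHA genes was 25.8 ± 0.823 (SD, n = 2) in A2780 WT, 13.4 ± 1.08 (n = 2) in MCF10A WT, 8.86 ± 1.18 (n = 4) in A2058 WT, 1.30 ± 0.319 (n = 2) in HCT116 WT and 0.263 in the single AGS WT library. For PCDHB the order was A2780 at 44.6 ± 1.73, AGS at 35.9, A2058 at 19.0 ± 1.04, MCF10A at 15.5 ± 1.15 and HCT116 at 1.42 ± 1.23. For PCDHG it was A2058 at 148 ± 7.43, A2780 at 123 ± 2.95, MCF10A at 33.2 ± 0.534, AGS at 11.6 and HCT116 at 9.85 ± 1.68. In each of these orders neighbouring lines with 2 or more libraries were separated by more than their SDs, and AGS, with 1 library, has no SD. A2780 counts come from another annotation, so its levels are set beside the others only approximately.

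Per kilobase of exon, the leading WT gene of the PCDHG family was PCDHGC3, a C-type isoform, in A2058 (20.3 CPM per kilobase), A2780 (13.7) and MCF10A (4.07). It was at 0 counts in all 6 HCT116 libraries and at 0 to 6 in the 8 AGS libraries, where PCDHGA10 (1.27) and PCDHGB7 (0.624) led. Among PCDHB genes, PCDHB2 led in A2780 (5.09), AGS (3.48) and MCF10A (1.13), PCDHB5 in A2058 (1.06) and PCDHB7 in HCT116 (0.163). Among PCDHA genes, PCDHA6 led in A2058 (0.527) and MCF10A (0.667), PCDHAC1 in A2780 (1.22), PCDHAC2 in HCT116 (0.195) and PCDHA10, at 3 counts, in AGS (0.0104). Outside the cluster, PCDH1, an epithelial adhesion protein, led in AGS (45.6), MCF10A (18.2) and HCT116 (2.76), PCDH7 in A2058 (5.72) and PCDH9 in A2780 (26.2).

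**Figure D1:**
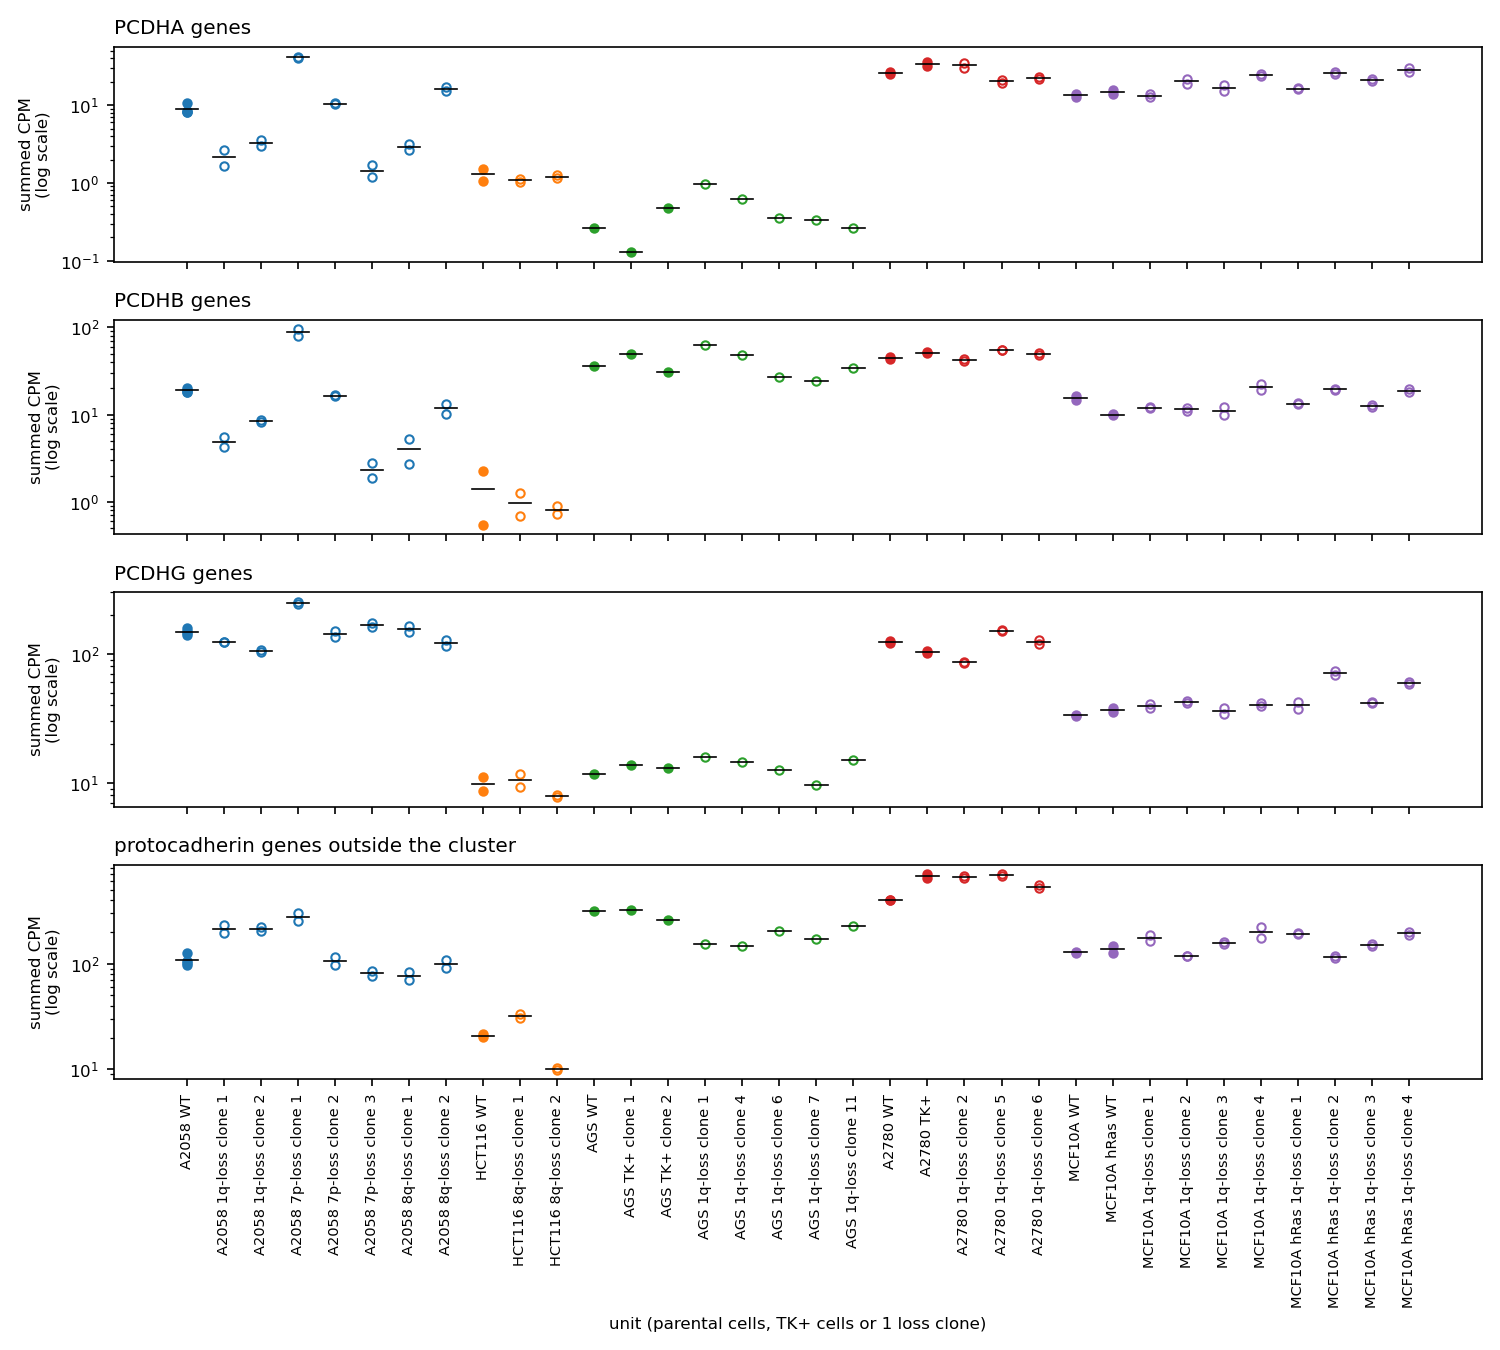
Summed CPM of each protocadherin family (log axis, each panel with its own range) for every unit, with 1 point per library, filled for WT and TK+ and open for loss clones, and a line at the mean. Colours mark the 5 lines, and the lowest panel leaves out 1 Y-linked gene. In A2058 the PCDHB sum runs from 2.33 in 7p-loss clone 3 to 87.3 in 7p-loss clone 1, while the A2780 sums stay between 42.4 and 54.7.

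To describe on or off expression, a unit was defined as the WT libraries, the TK+ libraries (1 clone each in AGS) or 1 loss clone. A gene was on in a unit where every library had at least 1 CPM, off where every library had 3 counts or fewer, and switched in a line where at least 1 unit was on and at least 1 off. In A2058, 40 clustered genes were on in at least 1 of 8 units and 15 of these (37.5%) were switched, beside 5.07% of all protein-coding genes on in a unit. Among genes whose highest unit mean stayed under 20 CPM, where most clustered genes lie, it was 15 of 38 (39.5%) beside 14.0%. In MCF10A 5 of 19 clustered genes were switched (26.3%), beside 2.23%, and under 20 CPM 27.8% beside 6.78%. In AGS 1 of 17 was (5.88%), beside 4.27%, and under 20 CPM 6.25% beside 13.6%. In HCT116 the count was 0 of 2, beside 0.265% (0.602% under 20 CPM), and in A2780 0 of 24, beside 1.42% (3.95% under 20 CPM). At these limits no protocadherin outside the cluster was switched in any line. The A2058 count rested on 7p-loss clone 1: without it 4 of 25 clustered genes were switched (16.0%), beside 4.03% of all protein-coding genes, and under 20 CPM 4 of 23 (17.4%) beside 11%. The counts also moved with the limits, given here for clustered genes whose highest unit mean was under 20 CPM, with the share of all such protein-coding genes beside them. In A2058 17 of 42 were switched with on at 0.5 CPM (beside 18.3%), 7 of 25 with on at 2 CPM (10.4%), 5 of 38 with off at 0 counts (7.47%) and 28 of 38 with off at 10 counts (23.2%), the last together with 1 gene outside the cluster. In MCF10A it was 9 of 27 with on at 0.5 CPM (11.9%), 1 of 12 with on at 2 CPM (3.74%), 1 of 18 with off at 0 counts (2.94%) and 7 of 18 with off at 10 counts (14.7%). In AGS, where each unit is a single library and so meets either limit more easily, it was 9 of 26 with on at 0.5 CPM (27%), 0 of 8 with on at 2 CPM (7.06%), 0 of 16 with off at 0 counts (4.91%) and 10 of 16 with off at 10 counts (28.6%).

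**Figure D2:**
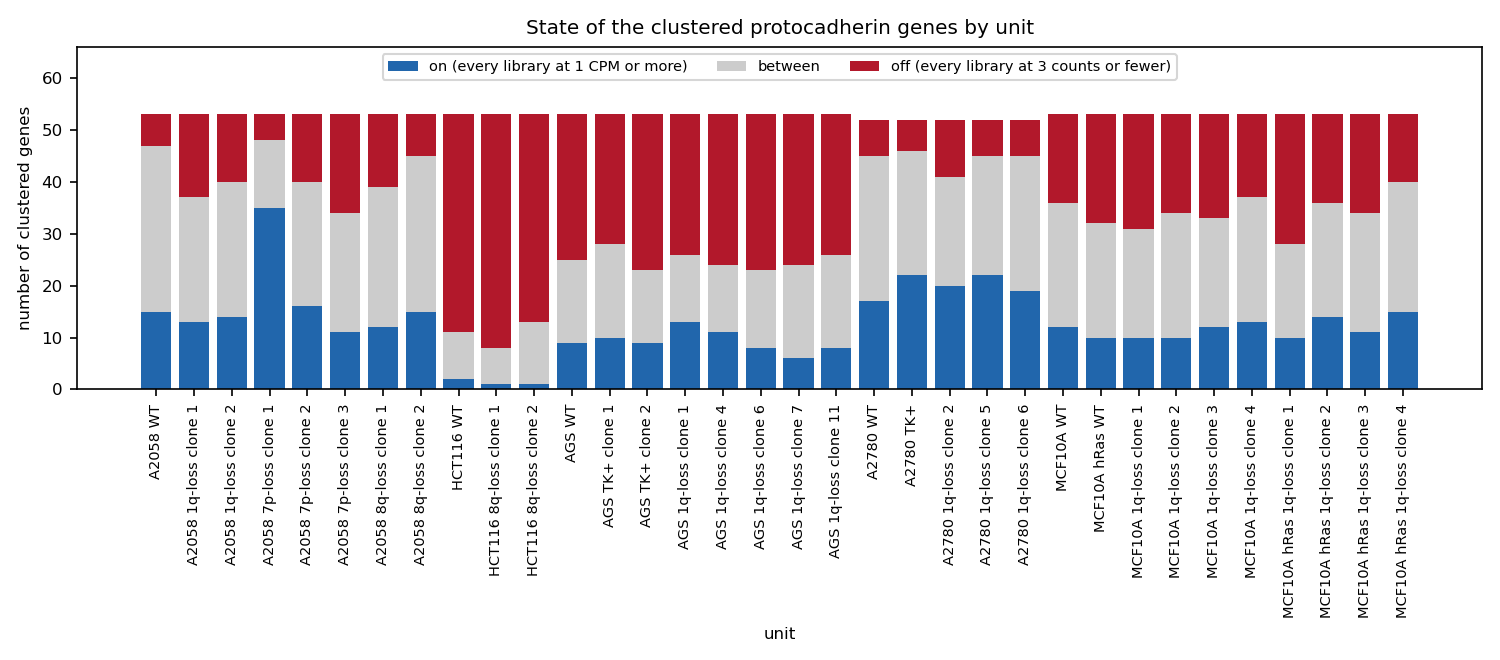
Number of clustered genes that were on, between or off in each unit (bars stack to 53 genes, or 52 in A2780). The 7p-loss clone 1 of A2058 had 35 on beside 15 in WT, and the 3 HCT116 units had 1 or 2 on.

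All 5 switched A2058 genes with the highest levels, PCDHB5, PCDHB8, PCDHB6, PCDHB4 and PCDHA7, peaked in 7p-loss clone 1. PCDHB5 had 335 and 643 counts in that clone, 78, 92, 94 and 52 in the 4 WT libraries, 16 and 12 in 7p-loss clone 2, and 0 and 4 in 7p-loss clone 3. In the remaining units it had 6 and 3 (8q-loss clone 1), 12 and 17 (8q-loss clone 2), 1 and 0 (1q-loss clone 1) and 6 and 5 (1q-loss clone 2). Clone 1 and WT were thus apart from every other unit, and WT lay below clone 1. PCDHB8 had 198 and 250 counts in 7p-loss clone 1, 13, 20, 24 and 33 in WT, 1 and 0 in each of 7p-loss clones 2 and 3, and 1 to 9 in 8q-loss and 1q-loss libraries. PCDHB6 had 129 and 235 counts in 7p-loss clone 1, 35, 46, 50 and 35 in WT, 0 and 1 in 7p-loss clone 3, and at most 15 elsewhere. PCDHB4 had 90 and 185 counts in 7p-loss clone 1, 24 and 28 in clone 2, 1 and 2 in clone 3, 25, 29, 10 and 16 in WT, 1 and 2 in 8q-loss clone 1, 11 and 13 in 8q-loss clone 2 and 1 to 5 in 1q-loss libraries. For PCDHA7 the counts were 93 and 91 in 7p-loss clone 1, 34 and 15 in clone 2, 2 and 3 in clone 3, and 17, 22, 22 and 16 in WT. PCDHA7 had 30 and 36 counts in 8q-loss clone 2, above WT, 6 and 7 in 8q-loss clone 1, 0 and 1 in 1q-loss clone 1 and 10 and 16 in 1q-loss clone 2. In PCDHB6, PCDHB4 and PCDHA7 clone 3 was the lowest of the 7p-loss clones and clone 1 lay above all WT libraries. The other 10 switched genes, 6 of them PCDHB and 4 PCDHA, had highest unit means of 1.10 to 2.99 CPM, each in 7p-loss clone 1.

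The high level in 7p-loss clone 1 was not shared by every gene of the cluster. PCDHB3, which lies between PCDHB2 and PCDHB4, had 10 and 21 counts in clone 1, 191 and 174 in clone 2, 10 and 17 in clone 3, and 57, 65, 64 and 65 in WT. Clone 2 was above and clones 1 and 3 were below all WT libraries, an order unlike that of its neighbours. PCDHA6 had 290 and 390 counts in clone 1, 83 and 97 in clone 2, 6 and 6 in clone 3 and 67, 77, 92 and 47 in WT. PCDHGC3, expressed in every unit, had 3603 and 4848 counts in clone 1 and 1433 to 2717 in the other 16 libraries. Of the clustered genes, 5 were on in every A2058 unit (PCDHGA6, PCDHGB5, PCDHGA10, PCDHGA12 and PCDHGC3, named after their values were seen) and 2 were off in every unit (PCDHA12 and PCDHB1, likewise).

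**Figure D3:**
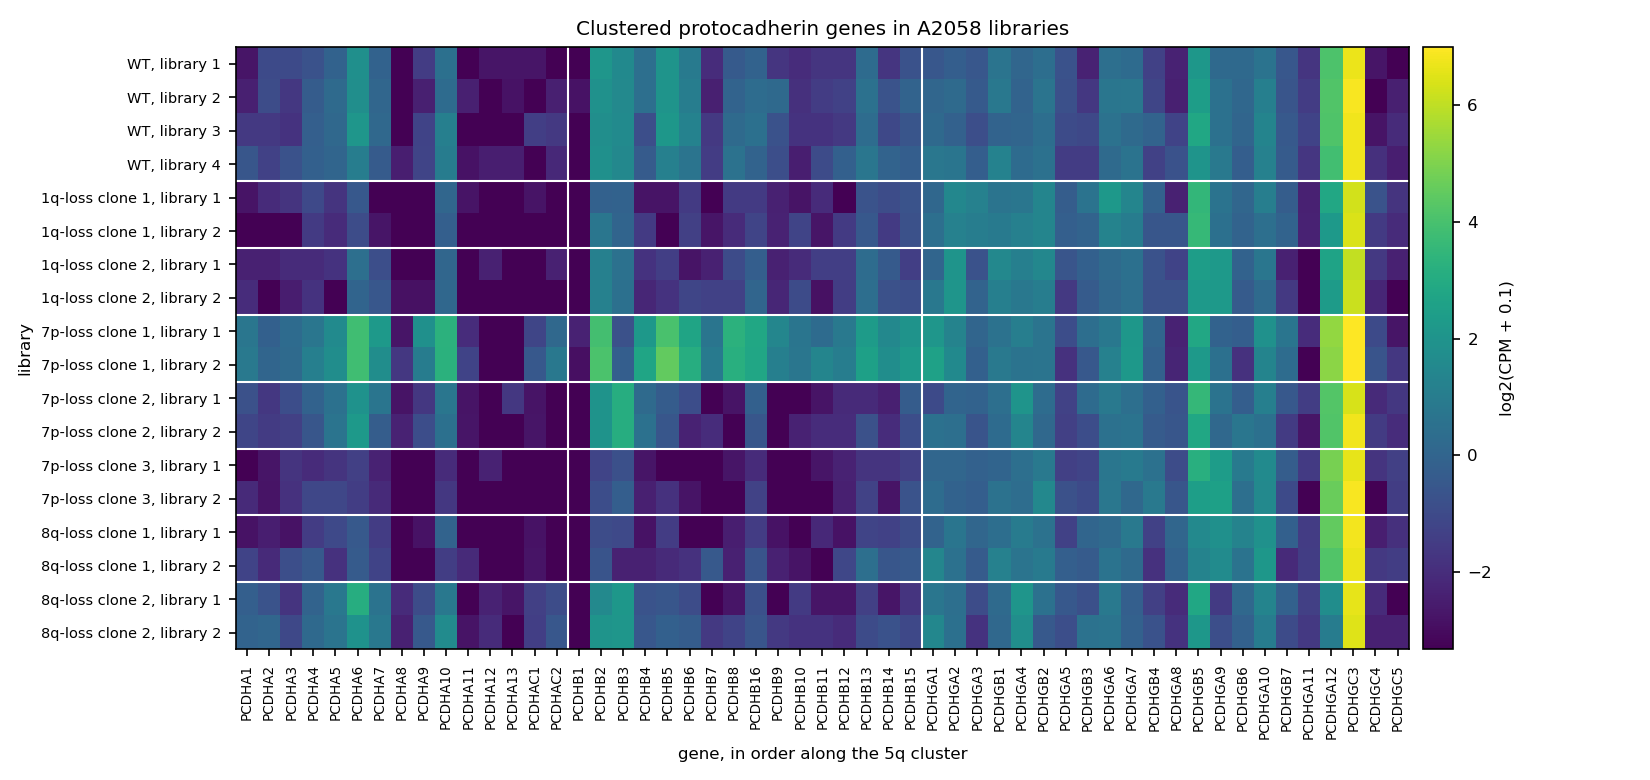
Level of each clustered gene, as log2(CPM + 0.1), in the 18 A2058 libraries, with genes in their order along the cluster and white lines between units and families. Most PCDHA and PCDHB genes are high in both libraries of 7p-loss clone 1 and low in clone 3, whereas PCDHGC3 is high throughout and PCDHB3 is highest in 7p-loss clone 2.

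A test among the 3 7p-loss clones called 33 of 43 clustered genes tested (76.7%), beside 29.4% of all genes (edgeR's quasi-likelihood test, Benjamini-Hochberg adjusted p under 0.05). However, 15 of the 43 did not pass the filter on low counts without clone 1, and 14 of these were called, a selection for the difference tested. They were 5 PCDHA, 9 PCDHB and 1 PCDHG genes, so the 76.7% supports nothing. Of the 28 that also passed the filter without clone 1, 19 were called (67.9%), beside 29.4% of all genes passing likewise: 5 of 5 PCDHA, 6 of 6 PCDHB and 8 of 17 PCDHG genes. Outside the cluster 4 of 7 tested were called (PCDH7, PCDH9, PCDH10 and PCDH18). Clone 1 had the highest mean in 33 of the 37 members called, a tally that includes the 14 selected through clone 1. By range of clone means the widest were PCDH7 (49.3 CPM in clone 3, 148 in clone 1, adjusted p = 0.00139), PCDHGC3 (96.4 in clone 2, 176 in clone 1, 0.0106), PCDHGA12 (18.4 in clone 2, 38.5 in clone 1, 0.00336) and PCDHB5 (0.0885 in clone 3, 19.8 in clone 1, 0.000339), all by edgeR's quasi-likelihood test. They were followed by PCDH9 (7.41 in clone 3, 24.3 in clone 1) and PCDHB2 (0.390 in clone 3, 15.8 in clone 1), with edgeR adjusted p of 0.0152 and 0.000155. Without clone 1, the test between clones 2 and 3 called 3 of 35 members tested, PCDHA6, PCDHB2 and PCDHB3, beside 0.539% of all genes. Marker genes differed among these clones too, with no test made. The melanocyte enzyme gene TYR, at 583 to 1066 CPM in clone 1, was at 1.07 to 4.91 in clone 2 and 0.0963 to 1.06 in clone 3. Other melanocyte genes had other orders: SOX10 was at 637 to 656, 579 to 626 and 649 to 687 CPM in clones 1, 2 and 3, and MITF at 157 to 184, 97.7 to 119 and 131 to 184. Fibroblast markers (5 genes) summed to 19.8 to 34.6 CPM in clone 1, 32.6 to 39.0 in clone 2 and 8.06 to 8.33 in clone 3, and the part of these markers in the result was not tested. Pooled against WT, 0 of 41 members tested were called, beside 0.908% of all genes, with 5 at an unadjusted p under 0.05 and 1 called by DESeq2. A single member did not overlap between the groups (1 of 41), beside 4.98% of all genes. Without clone 1 PCDHB5, PCDHB6, PCDHB8 and PCDHB13 were called (4 of 38 members tested, beside 5.96% of all genes), and without clone 2 PCDHB3 and PCDHGA12 (2 of 39, beside 0.872%). PCDHB5, PCDHB6, PCDHB8 and PCDHB13 were higher in WT than in clones 2 and 3. None of them passed the filter on low counts without the WT libraries, so their count supports no direction. The 3 A2058 loss groups were compared with the same 4 WT libraries.

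In A2058 clones that lost the extra 1q, 10 of the 15 PCDHA and PCDHB genes tested (of 31) were called lower than in WT, and PCDHG genes were called in both directions. Of these 15 genes, 4 of 5 PCDHA and 7 of 10 PCDHB genes did not pass the filter on low counts without the WT libraries, and 3 and 4 of them were among those called, so these counts support no direction. Of 33 clustered genes tested 16 were called by edgeR, 4 higher and 12 lower, and of 7 other genes 5 were (2 higher and 3 lower), so that 21 of 40 members (52.5%) were called beside 49.6% of all genes. The share was close to that background. Outside the PCDHA and PCDHB families, PCDHGB3 and PCDH12 did not pass the filter without the 1q-loss libraries, where both were high. PCDH17 did not pass it without the WT libraries. These 3 calls were thus selected for the direction tested. By family, 4 of 5 PCDHA genes tested and 6 of 10 PCDHB genes tested were lower and none higher, while of 18 PCDHG genes 4 were higher and 2 lower, beside 25.3% of all genes called higher and 24.3% called lower. Groups did not overlap in 22 members, beside 47.5% of all genes. PCDHB5, with the counts given above, fell by 4.71 on the log2 scale (SE 0.513, adjusted p = 3.22e-05, edgeR), and was among the genes that passed the filter only through WT. PCDH12, an endothelial protocadherin also called vascular endothelial cadherin-2, had 168, 176, 105 and 180 counts in the 1q-loss libraries and 7, 6, 14 and 10 in WT. Its log2 fold change was 4.05 (SE 0.292, edgeR adjusted p = 1.93e-06), and PCDH12 counts in 7p-loss and 8q-loss libraries were 12 to 54. PCDH7 had 4119, 3398, 4240 and 4683 counts in the 1q-loss libraries and 1359, 1553, 1681 and 1598 in WT, a log2 fold change of 1.38 (SE 0.0788, edgeR adjusted p = 4.23e-07). Both genes were higher in every 1q-loss library than in every WT library.

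The next clustered genes by size were PCDHB6 (log2 fold change -2.99, SE 0.389), PCDHA5 (-2.92, SE 0.499), PCDHB4 (-2.61, SE 0.504) and PCDHA6 (-2.00, SE 0.341), with edgeR adjusted p from 0.000108 to 0.00155. None of them passed the filter on low counts without the WT libraries, where all were higher. PCDHA6 had 13, 9, 27 and 24 counts in the 1q-loss libraries, all below its WT counts. The 4 PCDHG genes that rose, PCDHGA2, PCDHGA4, PCDHGB2 and PCDHGB3, had log2 fold changes of 0.86 to 1.95. PCDHGB3 had 30, 18, 17 and 18 counts in 1q-loss and 2, 5, 8 and 6 in WT, and passed the filter on low counts only through the 1q-loss libraries. PCDHGC3 fell by 0.56 on the log2 scale (SE 0.0781, edgeR adjusted p = 0.000184), from 2084 to 2717 counts in WT to 1433 to 1930. Outside the cluster the delta protocadherins PCDH17 (-1.91, SE 0.557), PCDH9 (-0.95, SE 0.317) and PCDH18 (-0.92, SE 0.240) were also lower, with edgeR adjusted p of 0.0157, 0.0287 and 0.00897. PCDH17 passed the filter on low counts only through the WT libraries, where it was high. PCDH9 was called under 10 of 15 alternatives. These clones had the low melanoma markers described above, and their fibroblast markers summed to 150 to 273 CPM beside 43.2 to 53.3 in WT, with DCN at or below 3 counts in clone 1. Basal epithelial markers (6 genes) summed to 56.5 to 285 CPM beside 3.73 to 7.32. The part of this shift in the protocadherin result was not tested.

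The 2 1q-loss clones differed from each other in 6 of 34 members tested (17.6%), beside 6.13% of all genes: PCDHGB5, PCDHGA9, PCDHGA6, PCDH9, PCDH17 and PCDH10. Of these 6, PCDH17 and PCDH10 did not pass the filter on low counts without clone 1, where both were higher. Their calls, included in the 17.6%, were thus selected for the difference tested. The count was 2 to 5 when 1 library was left out, 2 without replicate 1 and 3 without replicate 2 of clone 1, and 3 without replicate 2 of clone 2. PCDHGB5 had 240 and 249 counts in clone 1 and 112 and 126 in clone 2 (edgeR adjusted p = 0.00616). PCDHGA9 went the other way, with 30 and 27 counts in clone 1 and 101 and 126 in clone 2 (edgeR adjusted p = 0.00741). PCDH17 had 45 and 60 counts in clone 1, 13 and 5 in clone 2 and 114 to 121 in WT, so both clones were below WT by different amounts (edgeR adjusted p between clones 0.0221). PCDH9 and PCDH10 were also higher in clone 1, at 5.58 against 2.28 CPM and 1.44 against 0.219 CPM (edgeR adjusted p 0.0291 and 0.0282), as was PCDHGA6, at 3.40 against 1.04 (0.0444).

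In the A2058 8q-loss clones 2 of 39 members tested were called lower by edgeR (5.13%), beside 2.03% of all genes called in either direction and 1.49% called lower. PCDHB5 (log2 fold change -3.05, SE 0.453, adjusted p = 0.00822) and PCDHB8 (-2.85, SE 0.516, adjusted p = 0.0211) were lower in both clones than in every WT library. Neither passed the filter without the WT libraries, where both were high, so the count supports no direction. With clone 1 left out 6 of 43 members tested were called, beside 3.53% of all genes, and with clone 2 left out 10 of 42, beside 4.96%. Only 1 was called when WT replicate 2, 3 or 4 was left out. Groups did not overlap in 7 members, beside 8.61% of all genes. The clones themselves differed in 1 of 38 members tested, beside 0.592% of all genes. PCDHGA12 had 546 and 403 counts in clone 1, 68 and 41 in clone 2, and 338, 418, 382 and 348 in WT (edgeR adjusted p = 0.0265). In CPM both libraries of clone 1 lay above every WT library and both of clone 2 below. PCDHB3 had 9 and 2 counts in clone 1 and 91 and 92 in clone 2 and was not called between clones. Leaving out any 1 library gave 5 or 6 calls between these clones, of 40 to 45 members tested, beside 1.25% to 3.42% of all genes.

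In A2780, loss of 1q was compared with WT and TK+ together. Outside the cluster 4 of 10 genes tested were called, and 2 of 32 clustered genes. Together 6 of 42 members (14.3%) were called, beside 11.8% of all genes. Of these 6, PCDH19, PCDH20 and PCDHA10 did not pass the filter on low counts without the controls, where they were higher. Their calls were thus selected for the direction tested, and the counts support no direction. PCDH19, a delta protocadherin mutated in an X-linked epilepsy, had 504 and 440 counts in WT, 347 and 417 in TK+, 6 and 9 in clone 2, 22 and 13 in clone 5 and 17 and 22 in clone 6. All 6 loss libraries were low and all 4 controls high, with a log2 fold change of -4.88 (SE 0.280, edgeR adjusted p = 9.53e-06). PCDH7 had 1971 and 1741 counts in WT, 2481 and 2815 in TK+, 362 and 373 in clone 2, 823 and 928 in clone 5 and 292 and 266 in clone 6 (log2 fold change -2.19, SE 0.347, edgeR adjusted p = 0.00266). Neither gene overlapped between groups, and in both the loss clones were lower in 3 of 3. PCDH10, a delta protocadherin whose cytoplasmic tail binds the WAVE actin regulatory complex, had 792 and 711 counts in WT, 715 and 645 in TK+, 1684 and 1331 in clone 2, 904 and 884 in clone 5 and 1840 and 2118 in clone 6. Its log2 fold change was 0.99 (SE 0.236, edgeR adjusted p = 0.0214), called under 11 of 19 alternatives, whereas PCDH19 and PCDH7 were called under 19 of 19. PCDHGC5 had 18 to 49 counts in the controls and 63 to 108 in the loss libraries (1.20, SE 0.261, edgeR adjusted p = 0.0141). Clustered gene PCDHA10 (-1.33, SE 0.390, adjusted p = 0.0481) and PCDH20 (-1.67, SE 0.483, adjusted p = 0.0467) were called by edgeR although their groups overlapped. They were called under 4 and 5 of 19 alternatives, respectively. PCDH20 had 2 to 27 counts per library. Without either WT or either TK+ library 3 members were called, and 2 were called after both libraries of every clone had been added up. Groups did not overlap in 5 members, beside 13.1% of all genes.

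**Figure D4:**
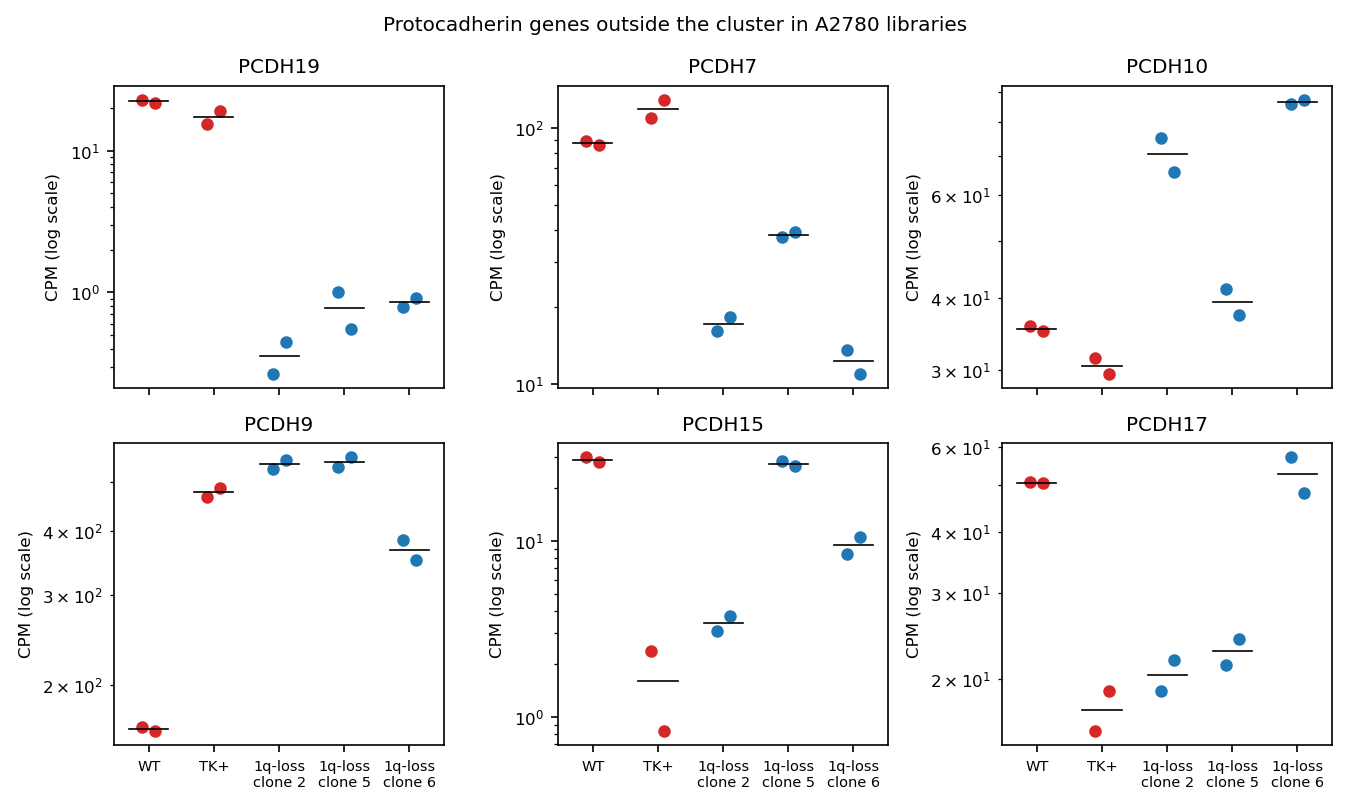
CPM (log axis, each panel with its own range) of 6 protocadherin genes outside the cluster in the 10 A2780 libraries, with 1 point per library and a line at the mean of each unit, red for WT and TK+ and blue for loss clones. PCDH19 lies at 15.3 to 22.8 CPM in the red units and at 0.267 to 1.01 in the blue ones, whereas PCDH15 and PCDH17 vary among the loss clones and between WT and TK+.

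TK+ and WT cells of A2780, which both keep the gain, also differed. Of 42 members tested 6 were called (14.3%), beside 11.2% of all genes, and 26 did not overlap beside 49.8%. PCDH15, part of the tip link of inner ear hair cells, had 666 and 571 counts in WT, 54 and 18 in TK+, 69 and 76 in clone 2, 624 and 634 in clone 5 and 180 and 254 in clone 6. TK+ was lower than WT (log2 fold change -4.17, SE 0.260, edgeR adjusted p = 3.45e-07), and the counts of loss clone 5 lay within the WT range. PCDH9 had 3653 and 3279 counts in WT, 10611 and 10609 in TK+ and 8222 to 13221 in the loss libraries (TK+ against WT 1.55, SE 0.0837, edgeR adjusted p = 9.32e-08). WT alone was low. PCDH17 had 1121 and 1027 counts in WT, 354 and 413 in TK+, 425 and 444 in clone 2, 468 and 573 in clone 5 and 1223 and 1167 in clone 6, and was lower in TK+ (-1.55, SE 0.109, edgeR adjusted p = 1.11e-06). PCDHAC2 (0.98, SE 0.145) and PCDH7 (0.45, SE 0.0923) were higher in TK+ and PCDHGB7 (-0.48, SE 0.112) lower, with edgeR adjusted p of 0.000661, 0.00674 and 0.0141. The PCDHGB7 call held under 5 of 8 alternatives. The epithelial keratin KRT8 was at 131 to 140 CPM in WT and 2.34 to 3.30 in TK+, and its part in these differences was not tested. The TK+ libraries are also controls of the 1q-loss comparison.

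Among the 3 A2780 1q-loss clones 15 of 43 members tested were called (34.9%), beside 20.6% of all genes: 7 of 9 other genes and 8 of 34 clustered genes. The widest ranges of clone means were those of PCDH9 (368 CPM in clone 6, 546 in clone 5, adjusted p = 0.00159), PCDH10 (39.3 in clone 5, 86.6 in clone 6, 4.82e-05), PCDH17 (20.4 in clone 2, 52.6 in clone 6, 2.92e-05) and PCDHGC3 (48.2 in clone 2, 78.4 in clone 5, 0.000788), by edgeR's quasi-likelihood test. PCDH7 (12.3 in clone 6, 38.4 in clone 5) and PCDH15 (3.41 in clone 2, 27.7 in clone 5) followed, with edgeR adjusted p of 1.61e-05 and 9.39e-07. Of the 8 clustered genes called, 7 (5 PCDHG and 2 PCDHB) had their highest mean in clone 5 and their lowest in clone 2, and PCDHAC2 had the opposite order. Keratin markers differed among these clones as well: KRT8 was at 41.4 to 43.8 CPM in clone 2, 4.69 to 6.95 in clone 5 and 3.08 to 5.61 in clone 6, and KRT18 at 39.4 to 42.9, 5.92 to 6.99 and 3.22 to 3.84. Their part in the result was not tested. The sums over PCDHG genes were 85.7 ± 1.49 CPM in clone 2, 123 ± 7.39 in clone 6 and 151 ± 1.37 in clone 5 (SD, n = 2 each). Leaving out clone 2 lowered the count to 8 of 42, beside 6.68% of all genes.

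In MCF10A the 5 switched genes were each on in 1 or 2 units. PCDHGC5, a C-type gene, had 56 and 56 counts in hRas 1q-loss clone 2, 23 and 37 in hRas clone 4, 16 and 13 in hRas clone 3 and 0 to 8 in the 14 other libraries. PCDHGB2 had 43 and 42 counts in hRas clone 4, 28 and 19 in hRas clone 2, 2 and 0 in WT and 0 to 25 elsewhere. PCDHGA1 had 34 and 42 counts in hRas clone 2 and 0 to 18 in all other libraries. So hRas clone 2 held the highest values of PCDHGC5 and PCDHGA1, and hRas clone 4 those of PCDHGB2. In hRas clone 4 PCDHGA1 had 5 and 7 counts. PCDHB12 had 38 and 34 counts in hRas clone 2 and 1 and 3 in hRas clone 1, and PCDHGA11 had 21 and 33 in 1q-loss clone 3 without hRas and 0 and 1 in clone 1.

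The group comparisons in MCF10A called 0 protocadherins by edgeR. For 1q loss it was 0 of 33 tested, beside 2.04% of all genes (7 members at an unadjusted p under 0.05, DESeq2 2). For 1q loss with hRas it was 0 of 35, beside 0.214% (4 unadjusted, DESeq2 0). For hRas in WT it was 0 of 21, beside 1.62% (7 unadjusted, DESeq2 0), and for hRas in 1q-loss clones 0 of 22, beside 1.20% (5 unadjusted, DESeq2 1). The interaction of 1q loss with hRas called 0 of 37 members and 0 of all genes (2 unadjusted, DESeq2 0). These comparisons share libraries. Median log2 fold changes over clustered genes tested were 0.18 and 0.67 for 1q loss without and with hRas, beside 0.01 and 0.03 over all genes.

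Among the 4 1q-loss clones 8 of 31 members were called (25.8%), beside 8.51% of all genes. PCDHGA11, among those called, did not pass the filter on low counts without clone 3, where it was highest. PCDH1 had 3180 and 3032 counts in clone 1, 2426 and 1681 in clone 2, 2306 and 3707 in clone 3 and 4271 and 2786 in clone 4 (edgeR adjusted p = 0.00560) and was lowest in clone 2, with clones 1 and 4 overlapping in CPM. PCDHAC1 (1.30 CPM in clone 1, 5.59 in clone 4, adjusted p = 0.00973), PCDH9 (5.13 in clone 1, 10.3 in clone 4, 0.0173), PCDHA12 (1.38 in clone 1, 4.38 in clone 4, 0.0450), PCDHGA12 (2.86 in clone 3, 7.71 in clone 1, 0.00560) and PCDHB16 (0.468 in clone 2, 3.34 in clone 1, 0.00545) had the next ranges, by edgeR. Leaving out clone 1 lowered the count to 3 of 29, beside 4.91% of all genes, and leaving out clone 4 lowered it to 4 of 26, beside 3.15%. The basal marker KRT14 was at 55.4 to 104 CPM in clone 1, 107 to 124 in clone 2, 3.71 to 6.58 in clone 3 and 6.10 to 7.03 in clone 4. TP63, another basal marker, was at 57.2 to 76.4 in these clones. The part of KRT14 in the result was not tested. Among the hRas 1q-loss clones 20 of 35 members were called (57.1%), beside 65.3% of all genes, so the members were not called more often than other genes there. PCDH1 had 1187 and 1129 counts in hRas clone 2 and 2574 to 4215 in hRas clones 1, 3 and 4 (edgeR adjusted p = 7.48e-18). PCDH9 had 536 and 563 counts in hRas clone 2, 66 and 54 in clone 1, 230 and 221 in clone 3 and 235 and 371 in clone 4 (edgeR adjusted p = 2.70e-12). PCDH7 had 1215 and 1124 counts in hRas clone 2 and 188 and 274 in clone 1 (edgeR adjusted p = 7.87e-12). PCDHGC3 (24.4 CPM in clone 1, 39.6 in clone 2), PCDHGB5 (3.77 and 14.0) and PCDHB14 (1.00 in clone 3, 5.52 in clone 2) completed the widest ranges, with edgeR adjusted p of 2.10e-06, 5.79e-11 and 8.26e-07. Hence hRas clone 2 was the extreme clone for all 6. Its 6 basal breast markers summed to 2095 to 2215 CPM beside 5698 to 12488 in the other 18 libraries, and 5 fibroblast markers to 267 to 286 beside 8.03 to 104, with COL3A1 and LUM at or below 3 counts. The part of these markers in the result was not tested.

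**Figure D5:**
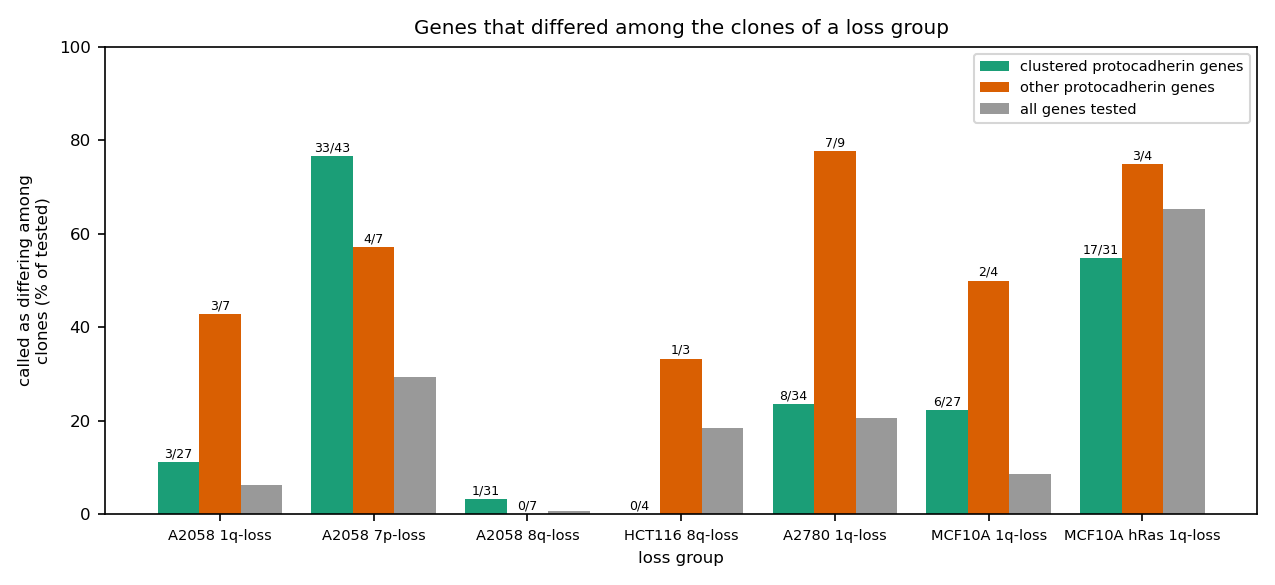
Percent of tested genes called as differing among the clones of a loss group (edgeR, adjusted p under 0.05), for clustered protocadherins, other protocadherins and all genes, with called over tested above the protocadherin bars. Clustered genes stood at 54.8% among MCF10A hRas clones beside 65.3% of all genes. The 76.7% among A2058 7p-loss clones includes 15 genes that were tested only through clone 1. The other protocadherins called among A2058 1q-loss clones include PCDH17 and PCDH10, tested only through 1q-loss clone 1.

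In AGS, PCDHB genes had the highest summed level of the clustered families. PCDHB2 had 273 counts in WT, 275 and 238 in TK+ clones 1 and 2, and 466, 440, 231, 198 and 188 in 1q-loss clones 1, 4, 6, 7 and 11. PCDHB13 had 167 in WT, 184 and 116 in TK+ and 225, 200, 79, 54 and 125 in the same 1q-loss clones. Loss clones lay on both sides of the controls in both genes. Of the clustered genes PCDHB2, PCDHB13, PCDHB14 and PCDHGB7 were on in every AGS unit (4 genes, named after their values were seen). PCDHB4 was the switched gene, with 23 counts in TK+ clone 1, 3 in 1q-loss clone 4 and 4 to 14 in the others. Of 21 members tested 1 was called with 1q loss, beside 7.55% of all genes: PCDH1 had 5120 counts in WT, 4517 and 4149 in TK+ and 2395, 2299, 3174, 2382 and 3109 in the loss clones. All 5 loss clones were below all 3 controls, the 1 member without overlap, beside 20.3% of all genes (log2 fold change -0.69, SE 0.156, edgeR adjusted p = 0.0317). PCDH1 was called under 6 of 12 alternatives, with edgeR or DESeq2 adjusted p from 0.00343 to 0.432, and not without WT, either TK+ clone or 1q-loss clone 1 or 7 (0 members called). PCDH7 had 919 counts in WT, 423 and 241 in TK+ and 161 to 280 in the loss clones, and was not called. KRT8 was at 3472 to 4960 CPM in the loss clones and 2055 to 2807 in the controls. KRT18 and KRT19 were also higher in every loss clone, whereas EPCAM and CDH1 overlapped. The part of these markers in the PCDH1 result was not tested.

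HCT116 expressed few protocadherins. Of the 53 clustered genes 34 were at 0 counts in all 6 libraries. PCDHGA10, the only clustered gene on in all 3 units, had 265 and 174 counts in WT, 247 and 201 in 8q-loss clone 1 and 199 and 168 in clone 2, and PCDHAC2 had 19 to 33. PCDHGA10 overlapped between the groups. PCDHGA3 had 26 counts in 1 WT library and 0 in the other 5. PCDH1 had 424 and 412 counts in WT, 719 and 669 in clone 1 and 135 and 113 in clone 2. The 2 clones therefore lay on opposite sides of WT. Against WT 0 of 8 members were called by edgeR, beside 0.140% of all genes (0 at an unadjusted p under 0.05, DESeq2 0), and between clones 1 of 7, beside 18.5% of all genes: PCDH1 (4.19 CPM in clone 2, 27.1 in clone 1, edgeR adjusted p = 0.000625).

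Genes known to act on the cluster, and the genes beside it, were described list by list. Of 25 regulators of the clustered promoters (CTCF, cohesin, DNA methylation and histone methylation genes), 11 of 25 tested were called with 1q loss in A2058 (5 higher, 6 lower), a share below the 49.6% of all genes. The largest there were DNMT3A, a DNA methyltransferase (log2 fold change -1.05, SE 0.151, edgeR adjusted p = 0.000217), and TET1, which oxidises methylated cytosine (-0.96, SE 0.186, edgeR adjusted p = 0.00153). With 1q loss in A2780 11 of 24 were called, all lower, beside 5.88% of all genes called lower. Of these TET1 (-0.52, SE 0.110), SETDB1 (-0.50, SE 0.0672), DNMT3B (-0.48, SE 0.106) and TET3 (-0.44, SE 0.106) were largest, with edgeR adjusted p from 0.00111 to 0.0228. SETDB1, a histone methyltransferase encoded on 1q, was also lower with 1q loss in A2058 (-0.57), AGS (-0.74) and MCF10A without hRas (1 of 25 there, beside 2.04%). AGS had SMCHD1 lower too (-0.58, 2 of 25 in all, near the 7.55% of all genes). RAD21, a cohesin gene on 8q, was lower with 8q loss in A2058 (-0.67, 1 of 25, beside 2.03%) and in A2780 TK+ cells (-0.77, 1 of 24, beside 11.2%). In the other MCF10A comparisons, HCT116 and A2058 7p loss 0 were called. CTCF was called in none of the group comparisons.

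In A2058 7p loss and 8q loss, HCT116, AGS and MCF10A 1q loss with and without hRas 0 of the 17 or 18 neighbours tested were called against controls, and among the 7p-loss clones 5 of 17 were, beside 29.4% of all genes. In 7p-loss clone 1 the median log2 difference of the neighbours from the A2058 median was -0.02 and -0.16 in its libraries, and 0.13 and 0.08 over 450 genes of 5q. In AGS the neighbours' difference from the AGS median was 0.52, 0.35, 0.22, 0.02 and -0.09 in 1q-loss clones 1, 4, 6, 7 and 11. It was 0.42 and -0.22 in TK+ clones 1 and 2 and -0.18 in WT. The part of this spread in the AGS PCDHB levels was not tested. With 1q loss in A2058 8 of 17 were called (4 higher and 4 lower), close to the 49.6% of all genes, of which SPRY4 (0.85, SE 0.137) and ARAP3 (0.67, SE 0.0639) were largest. In A2780 SPRY4 and TAF7 (2 of 16) were higher with 1q loss, near the 11.8% of all genes, and 3 of 16 were higher in TK+, beside 11.2%. SPRY4 was also the 1 gene of 18 called, higher, with hRas in MCF10A WT (1.62% of all genes) and in MCF10A 1q-loss clones (1.20%). Of other large cadherin-superfamily genes, 8 of 12 were called with 1q loss in A2058 (5 higher, 3 lower; 49.6% of all genes), 2 of 14 in A2780 TK+ (both lower; 11.2%) and 0 elsewhere against controls, apart from 1 of 13 in A2780 1q loss (higher; 11.8%) and 1 of 10 in AGS (higher; 7.55%). Of 15 genes for intracellular partners, 8 were called with 1q loss in A2058 (5 higher, 3 lower), close to the 49.6% of all genes. The count was 2 with 8q loss in A2058 (1 higher, 1 lower), beside 2.03%, 3 with 1q loss in A2780 (2 higher, 1 lower), beside 11.8%, 1 in A2780 TK+ (lower), beside 11.2%, and 0 elsewhere. PTK2B, a tyrosine kinase that binds protocadherin tails, had the largest change with 1q loss in A2058 (4.19, SE 0.308, edgeR adjusted p = 2.16e-06). CYFIP2, a WAVE complex subunit, was lower with 1q loss in A2058 (-3.84, SE 0.314, edgeR adjusted p = 4.46e-06) and higher with 1q loss in A2780 (1.82, SE 0.245, edgeR adjusted p = 0.00109).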

How the data were processed

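Polyadenylated RNA of 62 libraries was sequenced, and the deposited values are raw counts per gene and library, per the file headers. HISAT2 2.0.5, featureCounts 1.5.0-p3 and build hg38 are listed in the submitters' processing notes; strand and multi-gene read settings are not given in the sources used here. Gene coordinates in the A2780 tables are those of GRCh37, so no coordinate from them was used. Each line was analysed apart, since annotations differ.

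Counts were tested with edgeR 4.0.16 (R 4.3.3, limma 3.58.1): filterByExpr (minimum count 10, minimum total 15), trimmed-mean normalization, quasi-likelihood F test, Benjamini-Hochberg adjustment over all genes tested, calls at an adjusted p under 0.05. SE is the log2 fold change over the square root of F. CPM is a gene's count scaled to a common total of gene counts. DESeq2 1.42.0, RLE size factors, no filter, a replicate block, other on and off limits and leaving out libraries were alternatives, and leaving out a whole clone or unit was added after seeing the data. The scripts were tested on simulated data; tables and plots used Python 3.11.15, pandas 2.3.3, numpy 2.4.6 and matplotlib 3.10.9.

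The members and gene lists were chosen with earlier results of these data known. Named genes were switched members (the 5 highest per line in full), the 6 called members with the largest change or widest range of clone means per test, the leading WT member per kilobase in each family, and called members of the other lists (at most 4 a list and comparison). Members called in small numbers are named in full. PCDH11Y counts as a member and has no values here. Promoter windows came from RefSeq.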

Additional observations from a re-analysis of the deposited data

Results flagged for a closer look

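One of 36 groups of 4 or more libraries had a library apart from the rest: the summed level of the PCDHA genes was 10.6 CPM in A2058 WT replicate 3 and 8.17 to 8.43 in the other WT libraries. Chance gives about 1 in 20 such groups.

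For 5 members, log2 fold changes with 1q loss had opposite signs in different lines, every loss library of a line lying on the same side of the mean of its controls. The differences between lines were not tested, and several of the single changes were not called by edgeR. PCDH7 had log2 fold changes of 1.38 in A2058 and -2.19 in A2780, both called. In MCF10A it had 0.70 (edgeR adjusted p = 0.389) and in AGS -1.02 (edgeR adjusted p = 0.0945), neither called. PCDH12 had 4.05 in A2058, called, and -0.50 in A2780 (edgeR adjusted p = 0.284). PCDH10 had -1.31 in A2058 (edgeR adjusted p = 0.0943) and 0.99 in A2780, called. PCDH9 had -0.95 in A2058, called, and 0.60 in A2780 (edgeR adjusted p = 0.271). In A2780 the TK+ libraries, which keep the gain, had 468 and 486 CPM of PCDH9, inside the 351 to 559 of the loss libraries, and WT had 162 and 165. PCDHA6 had -2.00 in A2058, called, and 0.71 in MCF10A (edgeR adjusted p = 0.174). In A2058 PCDH12 passed the filter on low counts only through the 1q-loss libraries, and PCDH10 and PCDHA6 only through WT. Their A2058 changes were thus selected for their direction.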

How the results depend on the processing

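Of 385 alternatives to the counts of calls and switched genes, 317 stayed within 1.5 times and 68 moved. Over 68 member results, 929 alternatives gave 819 calls on the same side and 110 that were no longer called, with 0 reversed, and 36 results were called under every alternative. The cause of each move below was not tested. With DESeq2 the members called were 1 for A2058 7p loss, 6 for A2058 8q loss, 2 for AGS, 2 for MCF10A 1q loss, 1 for hRas 1q loss against 1q loss and 6 among A2058 8q-loss clones. With no filter they were 4 for A2058 8q loss, 2 for AGS, 2 for hRas WT against WT, 13 among A2058 8q-loss clones and 13 among MCF10A 1q-loss clones. WT alone as control gave 0 in AGS, and summing the libraries of each clone gave 2 for A2780 1q loss.

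Replicate numbers were taken as naming libraries, not pairing them: the labels tie a number to no shared batch, and in no comparison with more than 2 pairs did every same-numbered pair deviate together (lowest r from -0.36 to -0.00). In A2780 TK+ against WT, with 2 pairs, both did (r = 0.19), and in hRas WT against WT r was 0.06. The libraries that correlated best with their own number were 6 of 8 (A2058 1q), 7 of 10 (7p), 4 of 8 (8q), 4 of 6 (HCT116), 8 of 10 (A2780 1q), 4 of 4 (A2780 TK+), 10 of 10 (MCF10A 1q), 6 of 10 (hRas 1q), 4 of 4 (hRas WT) and 14 of 16 (hRas 1q loss against 1q loss), a hint from the data, not the design. With a replicate block the counts were 17 for A2058 1q loss, 0 for A2058 7p and 8q loss, 0 for HCT116, 6 for A2780 1q loss, 9 for A2780 TK+, 1 for MCF10A 1q loss, 1 for hRas WT against WT and 0 for the other MCF10A comparisons. Among clones, the block gave 10 (A2058 1q), 41 (A2058 7p), 16 (A2058 8q), 1 (HCT116), 17 (A2780), 13 (MCF10A 1q) and 19 (MCF10A hRas).

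Switched protocadherins in A2058 were 7 with on at 2 CPM, 5 with off at 0 counts and 29 with off at 10 counts (28 of them clustered). In AGS they were 9 with on at 0.5 CPM, 0 at 2 CPM, 0 with off at 0 counts and 10 with off at 10 counts. In A2780 they were 1 with on at 0.5 CPM and 2 with off at 10 counts, all outside the cluster, and in MCF10A 9 with on at 0.5 CPM, 1 at 2 CPM and 1 with off at 0 counts.

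Leaving out 1 library gave 19 to 26 calls for A2058 1q loss, 0 to 0 for 7p loss and 1 to 3 for 8q loss (1 without WT replicate 2, 3 or 4). Among A2058 clones it gave 2 to 5 (1q; 2 without replicate 1 and 3 without replicate 2 of clone 1, 3 without replicate 2 of clone 2), 25 to 35 (7p) and 5 to 6 (8q). It gave 0 to 1 in AGS, 3 to 5 for A2780 1q loss (3 without either WT or either TK+ library), 4 to 9 for A2780 TK+, 14 to 15 among A2780 clones, 5 to 11 among MCF10A 1q-loss clones (5 without clone 1 replicate 1 or clone 4 replicate 2) and 18 to 21 among hRas clones. The HCT116 and MCF10A group comparisons stayed at 0 and the HCT116 clones at 1. Leaving out a clone gave 24 to 25 (A2058 1q), 0 to 4 (7p), 6 to 10 (8q), 4 to 6 (A2780), 0 to 1 (MCF10A 1q; PCDHB4 without clone 4) and 0 to 4 (hRas 1q loss against 1q loss; PCDHGB5, PCDHGC5, PCDH9 and PCDH7 without hRas clone 1). Among clones it gave 3 to 35 (A2058 7p), 8 to 13 (A2780), 3 to 9 (MCF10A 1q) and 16 to 17 (hRas). Switched genes ranged over 15 to 18 without a library and 4 to 15 without a unit in A2058, 0 to 1 in AGS (0 without 1q-loss clone 4 or TK+ clone 1), 0 to 1 in A2780 (1 without TK+ replicate 1) and, in MCF10A, 5 to 7 without a library and 3 to 5 without a unit (3 without 1q-loss clone 1 or hRas clone 2). Where a clone was left with 1 library, that library was assumed to vary like the others.

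Most clustered genes lie at a few CPM, where on and off depend on depth and on the limits chosen. PCDHA and PCDHG values also depend on how shared exons were counted.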
